A study of Mus musculus with 17 samples.

Results

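A set of 10 genes that mark macrophages or make up the CSF1 axis were followed in RNA from mouse lung fibroblast cultures: the ligands Csf1 and Il34, their shared receptor Csf1r, and the myeloid genes Spi1, Tyrobp, Ptprc, Adgre1, Cd68, Lyz2 and Aif1. They were taken by symbol from the 55421 gene rows of the count table, and each symbol matched 1 row. Of the 10 members, 8 were among the 10481 genes that passed a filter on CPM (counts scaled to the total of each library), and only those 8 were tested. CPM levels given below are after TMM normalization. The filter used library totals before it, and asked for more than 10 CPM in at least 2 libraries. Il34 and Aif1 did not pass and are described by their levels.

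All 17 mice carried floxed Ephb4 (Ephb4 f/f) and a Cre recombinase fused to an estrogen receptor domain and driven by the Col1a2 promoter (Col1a2-CreERT2), which is meant to delete Ephb4 in cells that use that promoter, fibroblasts among them, after 4-hydroxytamoxifen. Ephb4 CKO mice received 4-hydroxytamoxifen at 1 mg per day for 5 days from 4 weeks of age and Ephb4 control mice received corn oil, so both genotype groups carry the transgene and the floxed alleles. At 6 weeks of age bleomycin (1.2 U/kg, which injures the lung) or PBS was given into the trachea, and lungs were taken on day 14. Cells from each lung were cultured in medium with 10% FBS and passaged once without sorting, and total RNA was sequenced from 4 Ephb4 control PBS, 4 Ephb4 control bleomycin, 5 Ephb4 CKO PBS and 4 Ephb4 CKO bleomycin mice, 1 library a mouse.

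Macrophages depend on CSF1R, a receptor tyrosine kinase on their surface, for survival and growth. It has a pair of ligands: CSF1, made largely by stromal cells such as fibroblasts, and IL-34, best known from epithelial cells and neurons. The transcription factor PU.1, encoded by Spi1, switches on Csf1r and much of the myeloid program, and TYROBP (DAP12) is the adaptor through which TREM2 and related receptors signal. In the lung, macrophages take part in the response to bleomycin. Lung fibroblasts themselves are not known for expressing Csf1r, Spi1, Adgre1 or Lyz2, so these genes are read here as a measure of myeloid RNA. The cultures were unsorted and also held epithelial marker RNA (26.6 to 2162 CPM summed). Whether epithelial or other cells added to these genes, Lyz2 among them, was not tested.

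The 3 upstream sequences are shown because they let a macrophage gene be set beside the ligand gene: Cd68 and Lyz2, whose log2 CPM correlated at r = 0.82 over the 17 libraries, and Csf1, whose r with them was −0.52 and −0.54. Each is the RefSeq window (GRCm38.p6) of 250 bases before an annotated start, read 5′ to 3′ on the gene's minus strand, without bases that GENCODE places in an exon, so the Lyz2 run is 201 bases long. Capitals mark GAGGAA, the core that PU.1 binds, and AGGAAGT, a longer ETS-family core, on either strand.
Cd68, chr11:69666171-69666420: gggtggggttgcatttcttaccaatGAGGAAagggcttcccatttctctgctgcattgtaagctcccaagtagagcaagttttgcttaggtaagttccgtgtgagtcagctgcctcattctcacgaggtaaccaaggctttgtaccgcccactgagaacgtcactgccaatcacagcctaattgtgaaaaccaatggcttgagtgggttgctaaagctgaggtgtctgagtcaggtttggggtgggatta
Lyz2, chr10:117282322-117282522: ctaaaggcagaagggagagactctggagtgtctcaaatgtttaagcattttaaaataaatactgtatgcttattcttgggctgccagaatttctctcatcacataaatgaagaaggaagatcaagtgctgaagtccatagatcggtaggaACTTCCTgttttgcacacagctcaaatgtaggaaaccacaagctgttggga
Csf1, chr3:107760470-107760719: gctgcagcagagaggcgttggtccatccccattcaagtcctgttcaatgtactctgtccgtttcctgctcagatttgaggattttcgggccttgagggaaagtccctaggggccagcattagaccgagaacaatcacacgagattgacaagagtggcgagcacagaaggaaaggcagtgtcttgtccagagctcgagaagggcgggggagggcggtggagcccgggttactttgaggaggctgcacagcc
Upstream windows of 5 of the members (Csf1, Ptprc, Cd68, Lyz2 and Aif1) were searched, 6 in all, and the other members were not searched. GAGGAA was found for Cd68, Ptprc and Aif1 and in 23.3% of all 32851 windows, and AGGAAGT for Lyz2 and Ptprc and in 7.69% of all windows. Neither was found in the Csf1 window, which held GGGCGG, the GC box, 2 times, a motif of 32.7% of all windows. Cd68 also had TTGCNNAA, a C/EBP motif found in 9.56% of windows, TGANTCA, an AP-1 motif found in 6.75%, and 1 GGGCGG. The search covered whole windows, exon bases included. The Aif1 GAGGAA began 7 bases before the annotated start, among the 16 bases of its window that GENCODE places in an exon. All these matches describe letters in a window and show no binding.

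The libraries held 66540022 to 120554468 counts (median 93075927). In 3 of them Xist and Y-linked counts went against the recorded sex, namely mouse 2 of Ephb4 control bleomycin and, of the Ephb4 CKO bleomycin mice, numbers 1 and 2. Mouse 1 of Ephb4 control bleomycin was the lowest of its group in all 8 myeloid members, and many fold changes and ratios that rest on it are also given without it. Each sample title holds a number, read here as an animal number though the title does not name it. It started with 12 in all 4 Ephb4 control bleomycin mice, against 1 of 4 Ephb4 control PBS mice. That number and the treatment thus largely coincide in these groups. Ephb4 itself ranged from 2.32 to 33.4 CPM in Ephb4 control PBS, 13.1 to 65.1 in Ephb4 control bleomycin, 4.01 to 23.6 in Ephb4 CKO PBS and 4.93 to 14.0 in Ephb4 CKO bleomycin, with overlap between genotypes. Its log2 fold change in Ephb4 CKO versus control was −1.998 after bleomycin (edgeR adjusted p = 0.22) and −0.73 after PBS (adjusted p = 1.00), and a count over the whole gene does not single out deleted exons.

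The myeloid genes were abundant in libraries labelled as fibroblasts, and outside Ephb4 control bleomycin most libraries were low in fibroblast genes. The paper reports that lung cultures at the first passage were highly pure in fibroblasts, by flow cytometry of marker proteins. That is a measure of cells and protein, while the values here are RNA levels. The paper does not say that those cultures were among the ones sequenced, and states no bleomycin or PBS treatment for them. Lyz2 had 863 to 36874 CPM over the 17 libraries, with a median of 18476. Col1a1, the main collagen gene of fibroblasts, had a median of 18.4 CPM in Ephb4 control PBS, 14.0 in Ephb4 CKO PBS and 30.0 in Ephb4 CKO bleomycin, and of 1391 CPM in Ephb4 control bleomycin. The 14 fibroblast markers, of which 12 passed the filter, summed to 5788 to 11682 CPM in Ephb4 control bleomycin, 14.1 to 7374 in Ephb4 control PBS, 32.0 to 1951 in Ephb4 CKO PBS and 16.1 to 1587 in Ephb4 CKO bleomycin. Only Ephb4 control bleomycin was high in every library, so fibroblast RNA moved with the group in the comparisons below. Its part in the members' results was not tested, and in such bulk RNA fewer cells of a type and less RNA per cell cannot be told apart.

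Per kilobase of exon, a scale on which genes can be compared roughly, the members spanned a wide range. The divisor is the union of annotated exons, which can exceed the length of the expressed transcript. It was longest for Ptprc, at 18313 bases, so ranks of nearby genes are uncertain. Median levels over the 17 libraries were 14040 CPM per kb for Lyz2 (lysozyme of macrophages and neutrophils), 761 for Tyrobp, 638 for Cd68 (a lysosomal membrane protein of macrophages), 58.2 for Adgre1 (F4/80, a surface receptor of mouse macrophages), 39.1 for Spi1, 37.3 for Csf1r, 15.5 for Ptprc (CD45, the phosphatase of all leukocytes), 11.1 for Csf1, 1.41 for Aif1 (IBA1, an actin-binding protein of macrophages and microglia) and 0.344 for Il34. Spi1 and Csf1r lay next to each other with ranges that overlapped almost wholly, 2.28 to 103 and 5.26 to 82.5 CPM per kb. Lyz1, a near-identical copy of Lyz2, stood at 2.07% to 2.49% of the Lyz2 level in every library, so how the counting divided reads between the copies is uncertain.

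**Figure D1:**
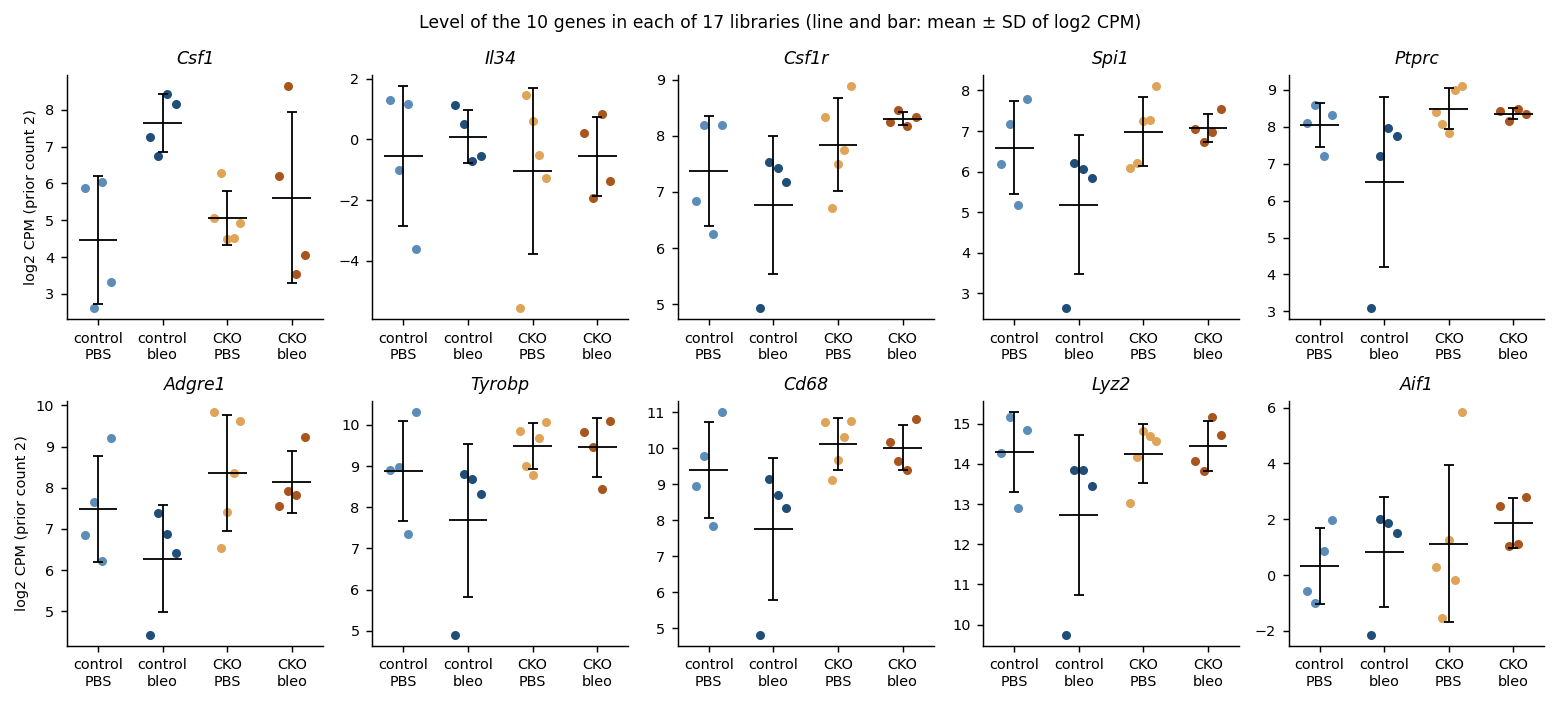
Log2 CPM (prior count of 2) of each of the 10 genes on the vertical axis for the 17 libraries in their 4 groups, where points are mice and the line and bar are the mean ± SD of log2 CPM. Csf1 is higher in all 4 Ephb4 control bleomycin mice than in any Ephb4 control PBS mouse, and Ephb4 control bleomycin mouse 1 lies far below its group in the myeloid genes.

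Csf1 (ENSMUSG00000014599, GRCm38 chr3:107741048-107760469) was the member that separated the Ephb4 control groups. It stood at 58.8, 6.07, 65.4 and 10.0 CPM in Ephb4 control PBS mice 1 to 4 and at 154, 107, 345 and 284 CPM in Ephb4 control bleomycin mice 1 to 4. All 4 bleomycin mice lay above all 4 PBS mice, and 5.72% of the 10481 genes showed such a separation upward in this comparison. The fitted log2 fold change was 2.66 ± 1.03 (SE), with an unadjusted p of 0.020 in edgeR's quasi-likelihood test and an adjusted p of 0.32 (Benjamini-Hochberg). Without any 1 library it was 2.32 to 3.19. With the animal number series as a covariate it was 1.10 (edgeR adjusted p = 0.79). The 1 Ephb4 control PBS mouse of the same series as the bleomycin mice, mouse 1, had 58.8 CPM.

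In Ephb4 CKO mice Csf1 did not separate by treatment. The PBS mice 1 to 5 had 33.2, 78.3, 22.3, 22.7 and 30.4 CPM and the bleomycin mice 1 to 4 had 73.9, 404, 11.6 and 16.7 CPM. Mouse 2 alone was above every PBS mouse, and mice 3 and 4 were below every one. Bleomycin versus PBS in Ephb4 CKO gave a log2 fold change of 1.76 ± 0.92 (SE; edgeR adjusted p = 1.00), which was −0.13 without mouse 2. Ephb4 CKO versus control after bleomycin gave −0.81 ± 0.97 (SE; edgeR adjusted p = 0.62), which was −2.71 without mouse 2 (adjusted p = 0.17) and −4.24 without the 3 libraries with discordant sex genes (adjusted p = 0.30). Mouse 2 is one of those 3 libraries. Leaving them out keeps Ephb4 CKO bleomycin mice 3 and 4, with animal numbers starting with 11, against Ephb4 control bleomycin mice numbered from 12. Genotype and number series cannot be told apart in that fit. With the number series as a covariate and no library left out, the log2 fold change of genotype after bleomycin was −0.56 (edgeR adjusted p = 0.73).

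Il34 (ENSMUSG00000031750, GRCm38 chr8:110741829-110805924), the other ligand, was low in all groups. Its counts in mice 1 to 4 were 181, 42, 217 and 6 in Ephb4 control PBS and 263, 158, 78 and 64 in Ephb4 control bleomycin. They were 0, 163, 133, 61 and 32 in Ephb4 CKO PBS mice 1 to 5 and 125, 26, 142 and 31 in Ephb4 CKO bleomycin mice 1 to 4. No group was set apart, and the highest library had 2.76 CPM. The 0 in Ephb4 CKO PBS mouse 1 allows up to 0.0366 CPM (3 counts, counting error only). With a filter of more than 1 CPM in at least 2 libraries, which kept 15724 genes, its log2 fold change was −0.08 ± 1.19 (SE) for bleomycin in Ephb4 control and −0.48 ± 1.19 for genotype after bleomycin, with edgeR adjusted p of 0.98 and 0.84. Il34 shares exon bases with the antisense genes Gm15894 and Gm15895, and its reads were counted by strand.

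Csf1r (ENSMUSG00000024621), the receptor, had its narrowest range in Ephb4 CKO bleomycin. There it stood at 303, 353, 291 and 324 CPM in mice 1 to 4, against 30.4, 185, 173 and 145 in Ephb4 control bleomycin. The lowest Ephb4 CKO bleomycin mouse was above the highest Ephb4 control bleomycin mouse. The PBS groups overlapped both, with 115, 292, 76.2 and 294 CPM in Ephb4 control mice 1 to 4 and 323, 105, 182, 215 and 477 CPM in Ephb4 CKO mice 1 to 5. Genotype after bleomycin gave a log2 fold change of 1.26 ± 0.56 (SE; unadjusted p = 0.039 and adjusted p = 0.23 in edgeR), and 0.89 without Ephb4 control bleomycin mouse 1. Csf1r shares 873 exon bases with Hmgxb3 on the opposite strand.

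Spi1 (ENSMUSG00000002111, GRCm38 chr2:91082390-91115756), which encodes PU.1, had 72.8, 145, 36.1 and 221 CPM in Ephb4 control PBS mice 1 to 4 and 6.16, 74.1, 66.6 and 56.9 in Ephb4 control bleomycin mice 1 to 4. It had 67.5, 73.7, 151, 154 and 278 CPM in Ephb4 CKO PBS mice 1 to 5 and 133, 105, 126 and 187 in Ephb4 CKO bleomycin mice 1 to 4. After bleomycin the genotypes did not overlap. The log2 fold change of genotype after bleomycin was 1.43 ± 0.66 (SE; edgeR adjusted p = 0.24). It was 1.02 without Ephb4 control bleomycin mouse 1.

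Tyrobp (ENSMUSG00000030579, GRCm38 chr7:30413760-30417585), the adaptor, had 477, 508, 162 and 1273 CPM in Ephb4 control PBS and 30.0, 445, 413 and 322 in Ephb4 control bleomycin. In Ephb4 CKO it had 931, 513, 438, 825 and 1078 CPM after PBS and 907, 704, 350 and 1096 after bleomycin. Mouse 3 of Ephb4 CKO bleomycin lay within the range of Ephb4 control bleomycin, so these groups overlapped. The log2 fold change was 1.34 ± 0.68 (SE; edgeR adjusted p = 0.27), and 0.92 without Ephb4 control bleomycin mouse 1.

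Ptprc (ENSMUSG00000026395, GRCm38 chr1:138062861-138175708), carried by all leukocytes, had 274, 384, 148 and 317 CPM in Ephb4 control PBS and 8.46, 147, 251 and 213 in Ephb4 control bleomycin. It had 338, 271, 228, 508 and 553 CPM in Ephb4 CKO PBS and 342, 283, 359 and 323 in Ephb4 CKO bleomycin. The genotypes did not overlap after bleomycin. Their log2 fold change was 1.08 ± 0.63 (SE; edgeR adjusted p = 0.32), and 0.65 without Ephb4 control bleomycin mouse 1.

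Adgre1 (ENSMUSG00000004730, GRCm38 chr17:57358691-57483527) varied widely within the PBS groups, with 116, 202, 74.0 and 593 CPM in Ephb4 control PBS and 916, 92.7, 170, 331 and 783 CPM in Ephb4 CKO PBS. It had 21.6, 167, 118 and 85.4 CPM in Ephb4 control bleomycin and 189, 243, 227 and 600 in Ephb4 CKO bleomycin. The genotypes were apart after bleomycin, with a log2 fold change of 1.68 ± 0.80 (SE; edgeR adjusted p = 0.25). This was 1.30 without Ephb4 control bleomycin mouse 1.

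Cd68 (ENSMUSG00000018774, GRCm38 chr11:69664213-69666153) had the largest fold change of the members in this comparison. It stood at 28.4, 565, 413 and 321 CPM in Ephb4 control bleomycin and 1160, 802, 677 and 1807 in Ephb4 CKO bleomycin, with no overlap. Ephb4 control PBS had 498, 885, 228 and 2050 CPM and Ephb4 CKO PBS had 1703, 551, 807, 1270.5 and 1734 CPM. The log2 fold change of genotype after bleomycin was 1.74 ± 0.75 (SE; unadjusted p = 0.034 and adjusted p = 0.23 in edgeR), and 1.32 without Ephb4 control bleomycin mouse 1.

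Lyz2 (ENSMUSG00000069516, GRCm38 chr10:117277331-117282321) had 19890.2, 36594, 7711 and 29324 CPM in Ephb4 control PBS and 863, 14618, 14850.0 and 11262 in Ephb4 control bleomycin. It had 8343, 18476, 28655, 26580.0 and 24158 CPM in Ephb4 CKO PBS and 17304, 14388, 36874 and 26894 in Ephb4 CKO bleomycin. Mouse 2 of Ephb4 CKO bleomycin lay below mice 2 and 3 of Ephb4 control bleomycin, so the groups overlapped, and the log2 fold change was 1.20 ± 0.67 (SE; edgeR adjusted p = 0.30). Without Ephb4 control bleomycin mouse 1 it was 0.77.

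Aif1 (ENSMUSG00000024397, GRCm38 chr17:35170991-35176068) was low while the other myeloid genes were high. It ranged from 0.472 to 3.93 CPM in Ephb4 control PBS, 0.207 to 4.02 in Ephb4 control bleomycin and 2.04 to 6.96 in Ephb4 CKO bleomycin. In Ephb4 CKO PBS, 4 mice had 0.322 to 2.35 CPM and mouse 5 had 57.5 CPM. With the 1 CPM filter the log2 fold change of genotype after PBS was 2.91 ± 1.40 (SE; edgeR adjusted p = 1.00), with mouse 5 as the 1 high library.

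Read together, the 7 tested myeloid members had 1 sign within each of the comparisons that involve Ephb4 control bleomycin, lower there than in Ephb4 control PBS and than in Ephb4 CKO bleomycin. In bleomycin versus PBS in Ephb4 control all 7 had negative log2 fold changes, from −1.46 (Cd68) to −0.55 (Csf1r), with a median of −1.17 against −0.06 over all 10481 genes. None passed the adjusted threshold of 0.05 in edgeR, where 0% of all genes passed. Of the 8 members, 1 (Csf1) had an unadjusted p under 0.05, and 14.3% of all genes did. DESeq2, which called 98 genes higher and 68 lower over the whole table, also called 0 members at an adjusted p of 0.05, with 2 of 8 at an unadjusted p under 0.05, beside 17.9% of all genes. Without mouse 1 of Ephb4 control bleomycin the 7 values ran from −1.03 (Cd68) to −0.17 (Csf1r). With the number series as a covariate they ran from −1.09 (Cd68) to −0.23 (Csf1r), and 0 of the 8 members had an unadjusted p under 0.05 in edgeR.

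In Ephb4 CKO versus control after bleomycin the 7 myeloid members had log2 fold changes of 1.08 (Ptprc) to 1.74 (Cd68), with a median of 1.34 against 0.01 over all genes. EdgeR called 0 of the 8 members at an adjusted p of 0.05, and 0% of all genes. At an unadjusted p under 0.05 there were 3 (Cd68, Csf1r and Spi1), all higher in Ephb4 CKO, where 20.2% of all genes were in either direction and 11% were higher. DESeq2, which called 145 genes higher and 254 lower over the whole table, called 0 members as well, with 5 at an unadjusted p under 0.05 beside 26.0% of all genes. Limma voom called 0, with 7 beside 23.0% of all genes. The 5 members (Csf1r, Spi1, Ptprc, Adgre1 and Cd68) were higher in every Ephb4 CKO bleomycin mouse than in any Ephb4 control bleomycin mouse, and 11% of all genes were. Both comparisons use the same 4 Ephb4 control bleomycin libraries, so their opposite signs are not independent. Without mouse 1 of that group the 7 values were 0.65 (Ptprc) to 1.32 (Cd68), and 0 of the 8 members had an unadjusted p under 0.05 in edgeR. With the number series as a covariate they were 0.71 (Lyz2) to 1.51 (Cd68), again with 0 of the 8.

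Ephb4 CKO versus control after PBS gave the 7 myeloid members −0.14 (Lyz2) to 0.90 (Adgre1), median 0.41, and Csf1 0.09. Bleomycin versus PBS in Ephb4 CKO gave them −0.54 (Adgre1) to 0.29 (Csf1r), median −0.07, and Csf1 1.76. No member had an unadjusted p under 0.05 in edgeR in either, and 1.99% and 0.964% of all genes did. The interaction of genotype and bleomycin, which tests whether the bleomycin difference itself differs by genotype, was 0.64 (Ptprc) to 1.34 (Cd68 and Lyz2) for the 7, with a median of 1.01, and −0.91 ± 1.34 (SE) for Csf1. Again 0 members had an unadjusted p under 0.05 in edgeR, against 3.46% of all genes, and the adjusted p was 0.92 to 0.94. In these 3 comparisons 0 members, and 0% of all genes, passed at an adjusted p of 0.05 in edgeR, and DESeq2 called 0 members as well. At an unadjusted p under 0.05 DESeq2 had 0 members after PBS, 1 in Ephb4 CKO and 0 for the interaction, beside 3.33%, 1.77% and 5.20% of all genes.

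**Figure D2:**
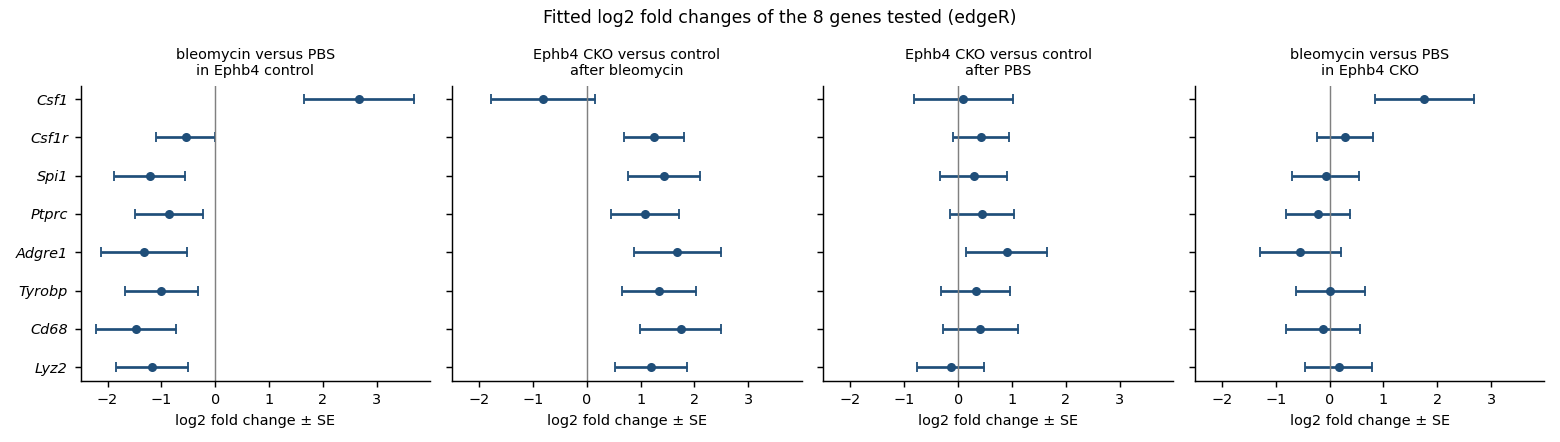
Fitted log2 fold change ± SE (horizontal axis) of the 8 tested genes in 4 comparisons from edgeR. The 7 myeloid genes lie left of 0 for bleomycin in Ephb4 control and right of 0 for Ephb4 CKO versus control after bleomycin, Csf1 lies on the other side in both, and no value passed an adjusted p of 0.05.

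Ligand supply was then set against the receptor within each library, a ratio that does not depend on library scaling. Per kilobase, Csf1 was 0.56, 0.023, 0.94 and 0.037 times Csf1r in Ephb4 control PBS mice 1 to 4 and 5.53, 0.63, 2.19 and 2.14 times Csf1r in Ephb4 control bleomycin mice 1 to 4. It was 0.11, 0.81, 0.13, 0.12 and 0.070 times Csf1r in Ephb4 CKO PBS mice 1 to 5 and 0.27, 1.25, 0.044 and 0.056 times in Ephb4 CKO bleomycin mice 1 to 4. Csf1 thus exceeded Csf1r per kilobase in 3 of 4 Ephb4 control bleomycin mice and in 1 of the other 13.

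On the log2 scale the mean Csf1 to Csf1r ratio was 1.01 ± 1.28 (SD) in Ephb4 control bleomycin, −2.78 ± 2.71 in Ephb4 control PBS, −2.66 ± 1.37 in Ephb4 CKO PBS and −2.56 ± 2.24 in Ephb4 CKO bleomycin. The difference was 3.79 for bleomycin in Ephb4 control and −3.57 for genotype after bleomycin, each with a p of 0.057 in the exact 2-sided permutation test over libraries and an adjusted p of 0.23 over 8 tests. The smallest p that 4 against 4 libraries allow in that exact test is 0.029. In PBS mice the genotypes differed by 0.12 and in Ephb4 CKO mice the treatments by 0.10 (adjusted p = 0.98 for both, exact permutation). With the geometric mean of the 8 myeloid members in place of Csf1r the first 2 differences were 4.27 and −3.77. Leaving out Ephb4 control bleomycin mouse 1, the Csf1 to Csf1r differences were 3.304 and −3.085 (adjusted p = 0.57 for both, exact permutation).

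Il34 stayed far below Csf1r in every library, at 0.0193% to 21.3% of it per kilobase, and the highest share was in Ephb4 control bleomycin mouse 1, where Csf1r was lowest. The mean log2 ratio was −6.36 ± 3.19 (SD) in Ephb4 control PBS, −5.11 ± 1.98 in Ephb4 control bleomycin, −7.33 ± 3.33 in Ephb4 CKO PBS and −7.31 ± 1.41 in Ephb4 CKO bleomycin. None of its 4 differences passed, and the lowest p was 0.14 (exact permutation, adjusted p = 0.38) for a difference of −2.20 in genotype after bleomycin. That difference was −1.24 without Ephb4 control bleomycin mouse 1 and Ephb4 CKO PBS mouse 5, the latter not part of this comparison. The lowest values rest on 0 and 6 counts of Il34, where the prior count of 2 weighs on the ratio.

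**Figure D3:**
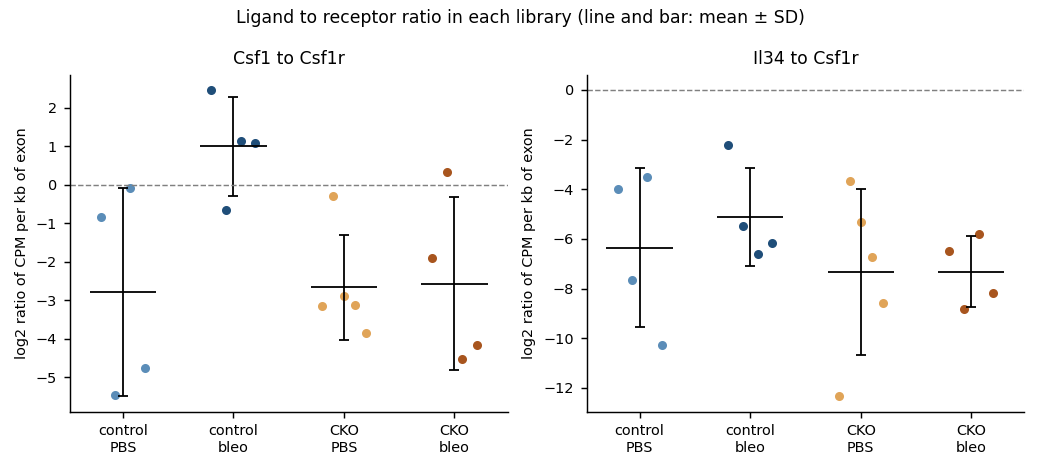
Log2 ratio of CPM per kilobase of exon, Csf1 to Csf1r and Il34 to Csf1r, on the vertical axis for the 17 libraries in 4 groups, with the mean ± SD; the dashed line marks equal levels. Csf1 lies above Csf1r in 3 Ephb4 control bleomycin mice and 1 Ephb4 CKO bleomycin mouse, and Il34 lies below Csf1r in all libraries.

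Relative to Ptprc, the gene of all leukocytes, the other 7 myeloid members were compared between groups as a log2 ratio. Differences ran from −0.80 to 2.06, and for bleomycin in Ephb4 control that of Csf1r was 0.95 (exact permutation p = 0.20, adjusted p = 1.00). In Ephb4 control bleomycin the Csf1r ratio had a median of −0.10 and a highest value of 1.84, that of mouse 1. The difference of 0.95 is given only with that mouse. Of 28 exact permutation tests (7 genes, 4 pairs of groups) 0 passed after adjustment, and 1 had an unadjusted p under 0.05, that of Aif1 for bleomycin in Ephb4 control (difference 2.06 on the log2 scale, p = 0.029, adjusted p = 0.80). That is the smallest p that 4 against 4 libraries allow, and alone it adjusts to 0.80 over 28 tests, so these tests do not show that proportions were kept. Over the 17 libraries the log2 CPM of the 7 members other than Aif1 correlated with each other at r of 0.62 to 0.98 (median 0.89, 21 pairs), and Aif1 with them at 0.39 to 0.64. These correlations are across libraries that share their totals. Markers of other leukocytes were low: 0 of 9 lymphocyte markers passed the filter and summed to 0.319 to 38.5 CPM, 1 of 8 neutrophil markers passed and the 8 summed to 1.63 to 84.1 CPM, and 1 of 6 dendritic cell and 0 of 4 mast cell markers passed.

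Both ligands tended to be high where myeloid genes were low. Csf1 had a negative Pearson r with all 8 myeloid members, from −0.54 (Lyz2) to −0.05 (Aif1), and Il34 with all 8, from −0.74 (Adgre1) to −0.12 (Lyz2). Without the 2 libraries farthest in the myeloid gene, Il34 with Lyz2 turned to r = 0.33 and Csf1 with Aif1 to 0.17. With group means removed every r stayed negative, but some were small, such as −0.02 for Il34 with Lyz2 and −0.06 for Csf1 with Ptprc. Of 19 relations computed, 2 passed an adjusted p of 0.05 by Pearson's r (1 negative, 1 positive) and 9 by Spearman's rho (8 negative, 1 positive), in permutation tests with 100000 resamples. The positive relation was that of Csf1 with the fibroblast markers by both measures.

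Csf1 and Csf1r gave r = −0.39 and rho = −0.33 (permutation adjusted p = 0.21 and 0.24), and r = −0.36 without the 2 libraries farthest in Csf1r, −0.28 with group means removed, and −0.57 and −0.24 within the 2 sorted runs of columns of the deposited table. Il34 and Csf1r gave r = −0.59 (permutation adjusted p = 0.070) and rho = −0.80 (adjusted p = 0.0027), and r = −0.58 without the 2 farthest libraries, −0.62 with group means removed, and −0.69 and −0.66 within the runs. Il34 and Adgre1 gave r = −0.74 and rho = −0.77 (permutation adjusted p = 0.0074 and 0.0034), and r = −0.70, −0.78, −0.66 and −0.83 in the same order. These Il34 relations were as large with group means removed.

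Csf1 and Lyz2 gave r = −0.54 (permutation adjusted p = 0.070) and rho = −0.81 (adjusted p = 0.0027), with r = −0.75 without the 2 farthest libraries and −0.34 with group means removed. Within the runs r was −0.84 and −0.37. Csf1 was higher with a higher mean log2 CPM of the fibroblast markers, at r = 0.75 and rho = 0.74 (permutation adjusted p = 0.0074 and 0.0050), with r = 0.74 without the 2 farthest libraries, 0.56 with group means removed (adjusted p = 0.097) and 0.85 and 0.86 within the runs. Il34 did so at r = 0.36 and rho = 0.33 (permutation adjusted p = 0.21 and 0.24). Csf1 and Il34 were related to each other at r = 0.21 and rho = 0.18 (permutation adjusted p = 0.49 and 0.54).

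The genes most like each axis member over the 17 libraries differed between the ligands. For Csf1 they were Acta2 (smooth muscle actin, r = 0.95), Ildr2, Mrvi1, Ncs1 and Cnn1 (calponin of contractile cells), all at 0.93 to 0.95. The paper uses the product of Acta2 as a marker of activated fibroblasts. For Il34 they were Rflnb, Tmprss2 (an epithelial membrane protease), Myc, Sfxn5 and Emp2, at 0.89 to 0.91. For Csf1r they were Slc25a45, Dpep2, Slamf7 (a leukocyte surface receptor), Rnf115 and B430306N03Rik, at 0.94 to 0.98. A pair of marker scores were then set beside the ligands, chosen after these genes were seen and so given with no test: Csf1 against the 4 smooth muscle markers had r = 0.86 and rho = 0.84 (Cnn1 is 1 of the 4), and Il34 against the epithelial markers, of which 7 of 8 passed the filter, had r = 0.78 and rho = 0.86. The crossed pairs were weaker for Csf1 with epithelial markers (r = −0.33) than for Il34 with smooth muscle markers (r = 0.52). Without the 2 libraries farthest in the smooth muscle score, r for Il34 with that score was 0.18. Those libraries, Ephb4 control PBS mouse 4 and Ephb4 CKO PBS mouse 1, had 6 and 0 counts of Il34, where the prior count weighs on log2 CPM. The smooth muscle markers summed to 445 to 462 CPM in Ephb4 control bleomycin, 1.27 to 56.7 in Ephb4 control PBS, 3.53 to 56.9 in Ephb4 CKO PBS and 3.02 to 283 in Ephb4 CKO bleomycin, where mouse 2 was highest in both Csf1 and this score. Which cells carried these markers, smooth muscle cells or activated fibroblasts, was not tested.

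**Figure D4:**
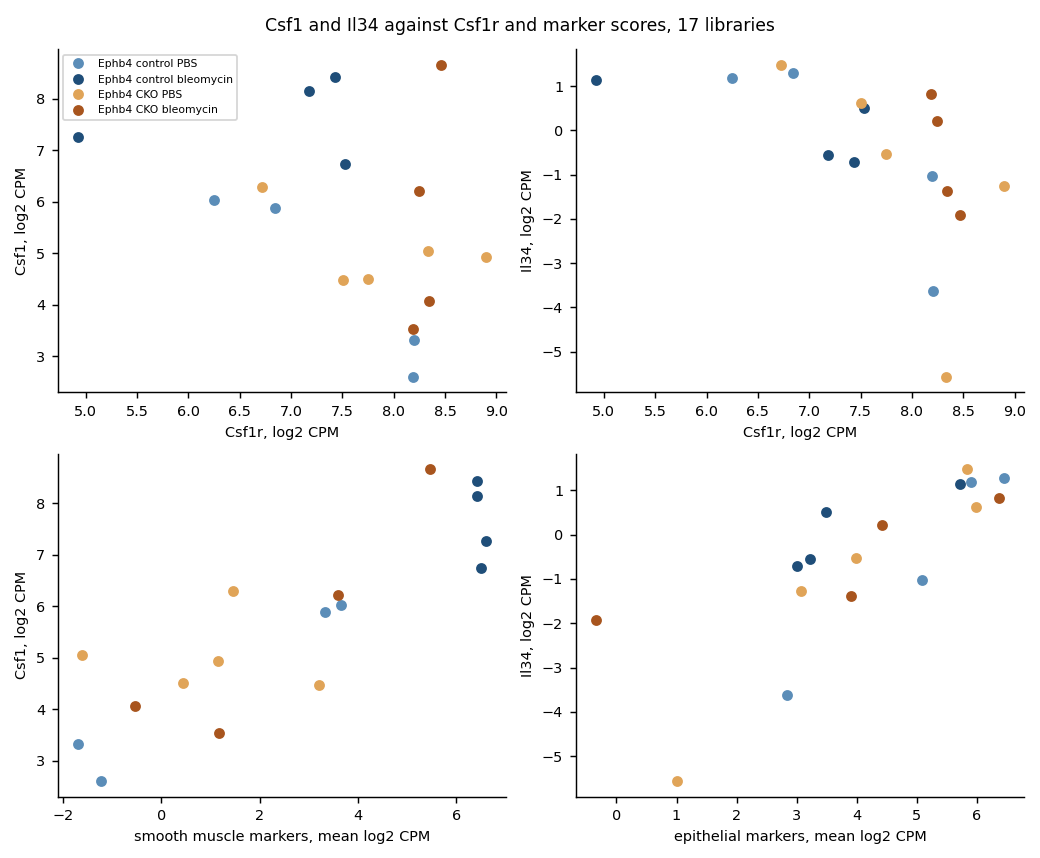
Log2 CPM of Csf1 and Il34 (vertical axes) against log2 CPM of Csf1r (top) and against the mean log2 CPM of smooth muscle or epithelial markers (bottom) in the 17 libraries, coloured by group. Csf1 follows the smooth muscle score (r = 0.86), Il34 follows the epithelial score (r = 0.78), and both are lower where Csf1r is higher (r = −0.39 and −0.59). Scores are named by their marker lists, and the cells behind them were not identified.

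Genes around the axis were counted by lists. No list gene passed an adjusted p of 0.05 in edgeR in any comparison, so the following are values without a call, and counts are at an unadjusted p under 0.05 in Ephb4 CKO versus control after bleomycin, where 11% of all genes were higher and 20.2% were in either direction. Of 23 CSF1R signalling genes, all tested, 6 were higher and 1 lower, and the median log2 value was 0.60. The phosphatase Ptpn6 (1.36 ± 0.67, SE) was near the high end, and the transcription factors Stat3 (−0.49 ± 0.23) and Myc (−0.37 ± 0.35) were lowest. Of 10 DAP12 and ITAM signalling genes, all tested, 5 were higher and 0 lower, with a median of 1.31, with Lat2 highest, then Trem2 (1.84 ± 0.97), the lipid-sensing receptor that signals through TYROBP, and Clec5a (0.66 ± 0.65) and Trem1 (−0.61 ± 1.20) lowest.

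Of 18 myeloid transcription factors 16 were tested, 7 were higher and 0 lower, beside 11% of all genes higher, with a median of 1.08. Nr1h3 (1.75 ± 0.76), the sterol sensor LXRα, and Irf5 (1.74 ± 0.72) were highest, and Maf (−0.61 ± 0.99) and Klf4 (−0.38 ± 0.40) lowest. Of 12 other myeloid growth factors and receptors 9 were tested, 3 were higher and 0 lower, with a median of 0.37, from Csf3r (2.06 ± 1.03), the G-CSF receptor, and Csf2rb2 (1.70 ± 0.55) to Csf2 (−1.14 ± 1.29), which encodes GM-CSF, and Kit (−1.78 ± 1.00). Of 12 other leukocyte genes, all tested, 4 were higher and 0 lower, with a median of 1.26, from Cd52 (2.49 ± 0.76) and Cd37 (2.06 ± 0.74) to Laptm5 (0.90 ± 0.60) and Lsp1 (−0.48 ± 0.47).

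Among the 6 genes that take part in the shedding of CSF1 from the cell surface or bind IL-34 in place of CSF1R, 5 were tested. Of these, 2 were higher and 1 lower, beside 20.2% of all genes in either direction. The protease Adam17, which sheds membrane-bound CSF1, had a log2 fold change of 1.19 ± 0.43 (SE), and its partner Rhbdf2 had 0.58 ± 0.23. Rhbdf1, the other iRhom partner of Adam17, had −1.39 ± 0.51, and Sdc1, a proteoglycan that binds IL-34, had 0.07 ± 0.57. In bleomycin versus PBS in Ephb4 control the list medians were −0.28 for CSF1R signalling, −0.84 for DAP12 and ITAM signalling, −0.89 for the transcription factors, −0.84 for the other growth factors and receptors, −0.29 for shedding and −0.84 for the other leukocyte genes, against −0.06 over all genes tested.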

How the data were processed

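Lung cells of 17 mice, 1 library each, were sequenced as stranded total RNA after ribosomal depletion. Per the labels and the study's methods, the authors trimmed reads with Cutadapt, aligned them to GRCm38 with HISAT2 2.1.0 by strand, and made the deposited gene counts from StringTie coverage with prepDE, so that the counts are whole-number estimates, not normalized. All 17 columns were matched to a sample by title and nothing was pooled.

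The 10 members were read by symbol. The members and all gene lists were chosen with earlier results of these data known. Counts were tested with edgeR 4.0.16 (R 4.3.3): TMM, genes with CPM above 10 in at least 2 libraries (10481 of 55421), 1 mean per group over all 17 libraries, quasi-likelihood tests, and p-values adjusted (Benjamini-Hochberg) over every gene kept, with a threshold of 0.05. SE is the log2 fold change over the root of F. The pipeline was tested on simulated counts. Log2 CPM used a prior count of 2, per-kilobase levels the union of exons in GENCODE M21. Ratios were compared with exact 2-sided permutation tests over libraries (SciPy 1.17.1), and correlations with 100000 permutations. Named genes were the members, the 2 highest and 2 lowest genes of each list in Ephb4 CKO versus control after bleomycin, marker genes that moved with a result, and the 5 genes most correlated with each of Csf1, Il34 and Csf1r. A gene that this rule names is not reported here. The study's own test was DESeq2 with batch number. The batch of a library is not given in the sources used here, so the 2 sorted runs of columns (8 and 9 libraries) and the first digits of the animal numbers were tried in its place. Alternatives were DESeq2 1.42.0, limma 3.58.1 voom, other normalizations and filters, covariates, and leaving out libraries. Libraries held 66540022 to 120554468 counts, and floors of 3 counts cover counting error only. Within-group pairs of libraries differed by more than sampling noise, so none was counted as a duplicate.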

Additional observations from a re-analysis of the deposited data

Results flagged for a closer look

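Ephb4 control bleomycin mouse 1 was far below the other 3 mice of its group in 6 members by Dixon's test for a single extreme value. It had 30.4 CPM of Csf1r (others 145 to 185), 6.16 of Spi1 (56.9 to 74.1), 8.46 of Ptprc (147 to 251), 30.0 of Tyrobp (322 to 445), 863 of Lyz2 (11262 to 14850.0) and 0.207 of Aif1 (2.83 to 4.02). Its mean log2 CPM of fibroblast markers was 7.93, next to 7.32 to 7.88 in the other 3, and the part of these values in the result was not tested. In Ephb4 CKO PBS the log2 ratio of Csf1 to Csf1r per kilobase was −0.30 in mouse 2, above −3.84 to −2.90 in the other 4 mice. Of 48 groups of values tested, 7 were set apart in this way, where chance gives about 1 in 20, and 6 of the 7 are the same library.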

How the results depend on the processing

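No member passed an adjusted p of 0.05 in any of the 5 comparisons under any of 31 other settings. Of 560 fold changes in settings other than leaving out 1 library, 545 kept their sign, and of 680 with 1 library left out, 660 did. For Ephb4 CKO versus control after PBS, Csf1 was −0.17 with column runs as covariate in DESeq2 and −0.17 in edgeR, −0.0052 with sex and −0.23 with the number series. For bleomycin versus PBS in Ephb4 CKO, limma voom gave Spi1 0.11 and Tyrobp −0.024, sex as covariate gave Tyrobp −0.0078, and the number series gave Spi1 0.17. Without the 3 libraries with discordant sex genes Csf1 was −1.45, Spi1 0.072, Tyrobp −0.10 and Cd68 0.0012 there, and the log2 ratio of Csf1 to Csf1r was −1.67. Without Ephb4 control bleomycin mouse 1 and Ephb4 CKO PBS mouse 5, chosen after seeing the data, Spi1 was −0.086 after PBS, and in Ephb4 CKO Spi1 was 0.30, Cd68 0.036, the Csf1 ratio −0.20 and the Il34 ratio −0.30. Within runs of columns the Il34 ratio in Ephb4 CKO was −0.041. The cause was not tested in any of these.

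With 1 library left out, values that turned ranged as follows. After PBS, the genotype difference ran from −0.37 to 0.61 for Csf1, −0.41 to 0.17 for Lyz2 and −0.087 to 0.78 for Spi1. Bleomycin in Ephb4 CKO gave −0.46 to 0.050 for Cd68, −0.13 to 2.22 for Csf1, −0.12 to 0.35 for Lyz2, −0.26 to 0.30 for Spi1 and −0.21 to 0.25 for Tyrobp. The Adgre1 interaction ran from −0.13 to 1.17. The log2 ratio of Csf1 to Csf1r ran from −0.77 to 1.02 for genotype after PBS and −0.86 to 0.75 for bleomycin in Ephb4 CKO. That of Il34 ran from −0.062 to 2.19 for bleomycin in Ephb4 control, −2.28 to 0.27 for genotype after PBS and −1.23 to 0.93 for bleomycin in Ephb4 CKO. The correlation of Il34 with Csf1r missed the threshold by Pearson's r over 17 libraries and passed it by rho (−0.80) and by r without the 2 farthest libraries (−0.58). No paired analysis was possible because no pair of groups compared shares an animal number in the labels, and the numbers that do recur join groups that were not compared.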
